A study of Mus musculus with 8 samples.

Results

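The genes of DNA replication, mitosis and the control of entry into S phase were examined in effector CD8 T cells with a conditional deletion of the transcriptional repressor Blimp-1. The set was a list of 50 genes chosen by name, and each gene was read from the probe with the highest mean signal over all arrays. Probes in the array annotation named 46 of the 50, out of 14739 named genes measured. The other 4, Gins2, Aurkb, Ccnb1 and Mki67, had no probe under that name, and their expression was not analysed here. Of the 46 genes, 14 serve DNA replication, 17 serve mitosis, 10 drive entry into S phase, and 5 are inhibitors or pocket proteins that hold cells in G1.

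Cells came from mice 8 days after infection with 200000 plaque-forming units of lymphocytic choriomeningitis virus, strain Armstrong. CD8 T cells that bound the tetramers DbGP33-41 or DbNP396-404, which carry peptides of the viral glycoprotein and nucleoprotein, were sorted from spleen. In 4 samples, CKO1 to CKO4, the genotype was Blimp-1flox/flox x GranzymeB-cre+, so that deletion starts only in cells that switch on granzyme B. The 4 control samples, WT1 to WT4, were labelled wildtype and came from littermates, and both groups were infected alike. The sources used here give neither age nor whether a sample was 1 animal. The p-values therefore rest on the spread among 4 samples a group, some of which may be technical. Each sample was hybridised to 1 one-colour array, and values are log2 signals from 5.33, the lowest on any array, to 15.15. A difference always means the CKO mean less the WT mean on this log2 scale.

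A cell that prepares to divide first makes D-type cyclins, which pair with Cdk4 or Cdk6 and phosphorylate the retinoblastoma family of pocket proteins. E2F transcription factors are thereby released and switch on replication genes such as those of the MCM helicase. After S phase, cyclin A, cyclin B and Cdk1 drive mitosis, and their genes are known to peak later through promoter elements named CHR and CCAAT. CD8 T cells divide very fast in the first week of this infection. Blimp-1 is known in B cells as a repressor of proliferation genes when plasma cells form.

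Promoter windows are shown because replication and mitosis genes, the 2 classes compared here, held different motif letters in them. Those shown are of replication, mitosis and S phase entry genes, and none is of an inhibitor or pocket protein. RefSeq windows of 300 bases, 250 before and 50 after each annotated start in GRCm38.p6, were found for 42 of the 50 listed genes, Ccnb1 and Mki67 included, which had no probe, so that the genes counted here are not the same as those measured. The letters searched on both strands were TTTCCCGC, TTTGGCGC, TTTCGCGC and TTTGCCGC for E2F, TTTGAA and TTCGAA for CHR, CCAAT, and AGNGAAAG as a core of the sequence bound by Blimp-1. E2F letters were present in 6 of 13 replication genes (46.2%) and in 1 of 17 mitosis genes (5.88%), against 2.60% of 27025 genes with a window. CHR letters were present in 13 of 17 mitosis genes (76.5%) and in 3 of 13 replication genes (23.1%), against 21.7% of all. CCAAT was present in 15 of 17 mitosis genes (88.2%) and in 9 of 13 replication genes (69.2%), against 41.1% of all. The Blimp-1 letters were present in 1 of 42 members (2.38%), Cdk2, against 9.91% of all genes. A match describes letters in a window and no bound site. Motif letters are in capitals in the windows that follow, with overlapping matches run together, 5′ to 3′ along each gene.
Mcm6, chr1:128359656-128359955, minus strand: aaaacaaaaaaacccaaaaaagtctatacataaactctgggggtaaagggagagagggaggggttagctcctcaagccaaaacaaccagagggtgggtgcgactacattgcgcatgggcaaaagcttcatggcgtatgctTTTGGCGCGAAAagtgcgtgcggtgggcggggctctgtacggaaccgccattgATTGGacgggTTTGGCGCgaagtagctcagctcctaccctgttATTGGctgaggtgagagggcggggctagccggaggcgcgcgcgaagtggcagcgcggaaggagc
Mcm7, chr5:138171834-138172133, minus strand: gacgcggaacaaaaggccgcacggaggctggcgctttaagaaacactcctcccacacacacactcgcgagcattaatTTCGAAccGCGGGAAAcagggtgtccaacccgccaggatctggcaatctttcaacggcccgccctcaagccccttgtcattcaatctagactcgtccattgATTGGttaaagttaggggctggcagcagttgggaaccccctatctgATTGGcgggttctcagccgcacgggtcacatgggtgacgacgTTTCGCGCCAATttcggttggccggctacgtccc
Cdc20, chr4:118437294-118437593, minus strand: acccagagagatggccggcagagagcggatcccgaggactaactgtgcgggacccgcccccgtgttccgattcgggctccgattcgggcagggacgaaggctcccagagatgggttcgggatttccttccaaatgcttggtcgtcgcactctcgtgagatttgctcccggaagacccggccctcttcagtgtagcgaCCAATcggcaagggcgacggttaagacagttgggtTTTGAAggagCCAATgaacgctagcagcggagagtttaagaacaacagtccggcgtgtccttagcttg
Plk1, chr7:122159185-122159484, plus strand: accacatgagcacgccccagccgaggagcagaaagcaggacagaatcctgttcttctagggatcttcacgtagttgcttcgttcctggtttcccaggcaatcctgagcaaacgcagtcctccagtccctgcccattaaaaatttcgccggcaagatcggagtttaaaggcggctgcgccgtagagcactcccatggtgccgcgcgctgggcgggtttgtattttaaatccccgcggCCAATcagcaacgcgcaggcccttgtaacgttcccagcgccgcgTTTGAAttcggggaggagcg
E2f2, chr4:136172024-136172323, plus strand: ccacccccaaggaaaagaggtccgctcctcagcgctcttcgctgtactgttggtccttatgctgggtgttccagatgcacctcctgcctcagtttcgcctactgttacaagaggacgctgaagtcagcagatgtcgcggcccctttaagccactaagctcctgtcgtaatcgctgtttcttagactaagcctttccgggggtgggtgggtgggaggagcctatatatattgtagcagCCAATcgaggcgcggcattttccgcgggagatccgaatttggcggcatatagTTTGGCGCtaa
Ccnd3, chr17:47504801-47505100, plus strand: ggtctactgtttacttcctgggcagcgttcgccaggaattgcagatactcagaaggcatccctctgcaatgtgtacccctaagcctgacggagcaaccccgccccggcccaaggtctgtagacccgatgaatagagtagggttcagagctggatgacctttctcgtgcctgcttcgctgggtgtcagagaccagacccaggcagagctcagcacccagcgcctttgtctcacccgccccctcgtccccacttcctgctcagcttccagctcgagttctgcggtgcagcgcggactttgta
Mcm6 and Mcm7, subunits of the replicative helicase, held 3 and 2 E2F matches. Cdc20, which activates the anaphase-promoting complex, and Plk1, a mitotic kinase, each held 1 CHR match near the start. E2f2 held 1 E2F match, and Ccnd3 held no match to any of the 4 motifs in the window shown. A pair of the Mcm6 E2F matches overlap, as do an E2F and a CCAAT match of Mcm7. Mcm7, E2f2 and Ccnd3 each have a further annotated start. Its window held CCAAT but no E2F or CHR letters in Mcm7, CHR and CCAAT but no E2F letters in E2f2, and CCAAT alone in Ccnd3. A gene was counted where any of its windows held the letters.

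On these arrays the values of Prdm1, which encodes Blimp-1, did not overlap between groups on either of its 2 probes, which moved in opposite directions: 5.59 to 6.11 in WT and 8.65 to 9.27 in CKO on one, 7.51 to 8.07 and 6.29 to 6.65 on the other. The sources used here do not place either probe relative to the deleted part. CD8 and T cell receptor markers were bright, with Cd8b1 at 14.14 to 14.71 over all samples, and Cd4 was near the floor at 5.76 to 6.05. WT2 and CKO2 stood apart, with 18S ribosomal RNA signals of 11.2 and 10.8 against 12.47 to 12.99 elsewhere. Limma's array weights, which fall as an array departs from its group, were 0.427 and 0.420 for WT2 and CKO2 and 0.905 to 1.87 for the others. In a bulk sample, fewer cells that express a gene and less of its RNA per cell cannot be told apart.

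Among the 42 members that passed the filter on dim probes, 4 were lower in CKO and none was higher. D-type cyclins Ccnd3 and Ccnd2, the transcription factor E2f2 and the Cdk4 and Cdk6 inhibitor Cdkn2c fell, by 2.47-fold, 1.39-fold, 1.42-fold and 1.70-fold. None of the 14 replication genes and none of the 13 mitosis genes tested passed the threshold of 0.05 on the limma adjusted p. Lists this small can hold no call at the share called over all genes. The median SE of these replication and mitosis genes was 0.17 and 0.20, larger than the 0.12 over all genes tested. At an unadjusted p under 0.05 stood 1 replication gene (Mcm6, higher) and 2 mitosis genes (Ccna2 and Cdc25b, lower). Over all genes tested, 23.3% had such a p in limma, a larger share than in either list. Genes lower with such a p were 10.9% of all genes tested, a smaller share than 2 of 13. The 4 lower calls are 9.52% of 42 members, where 3.04% of 8095 genes tested were lower, 4.73% higher and 7.77% either way. Blocking on replicate number raised the calls from 629 to 1017 genes (12.6%), while the members that passed were the same 4. Groups did not overlap in 6 tested members (14.3%), against 15.7% of all genes tested.

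Leaving out 1 sample lowered the count of 4 to 3 without WT2, to 2 without WT1, WT4 or CKO1 and to 1, Ccnd3, without WT3, CKO3 or CKO4. Without CKO2 it stayed at 4, with Cdc25b in place of Ccnd2. Without WT2 and CKO2 together, 7 members were lower, where Ccnd2 was lost and Ccna2, Cdc25b, E2f1 and Rrm2 were gained. With array weights 7 were lower, with Ccna2, Cdc25b and Cdkn1a added. Lower calls over all 8095 genes tested also rose, from 246 to 363 without WT2 and CKO2 and to 527 with array weights. Without WT1 and CKO1 none passed, and lower calls over all genes tested fell from 246 to 97. WT1 and CKO1 alone had a bright signal of the Y-linked gene Eif2s3y, and the part of sex in this loss was not tested.

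**Figure D1:**
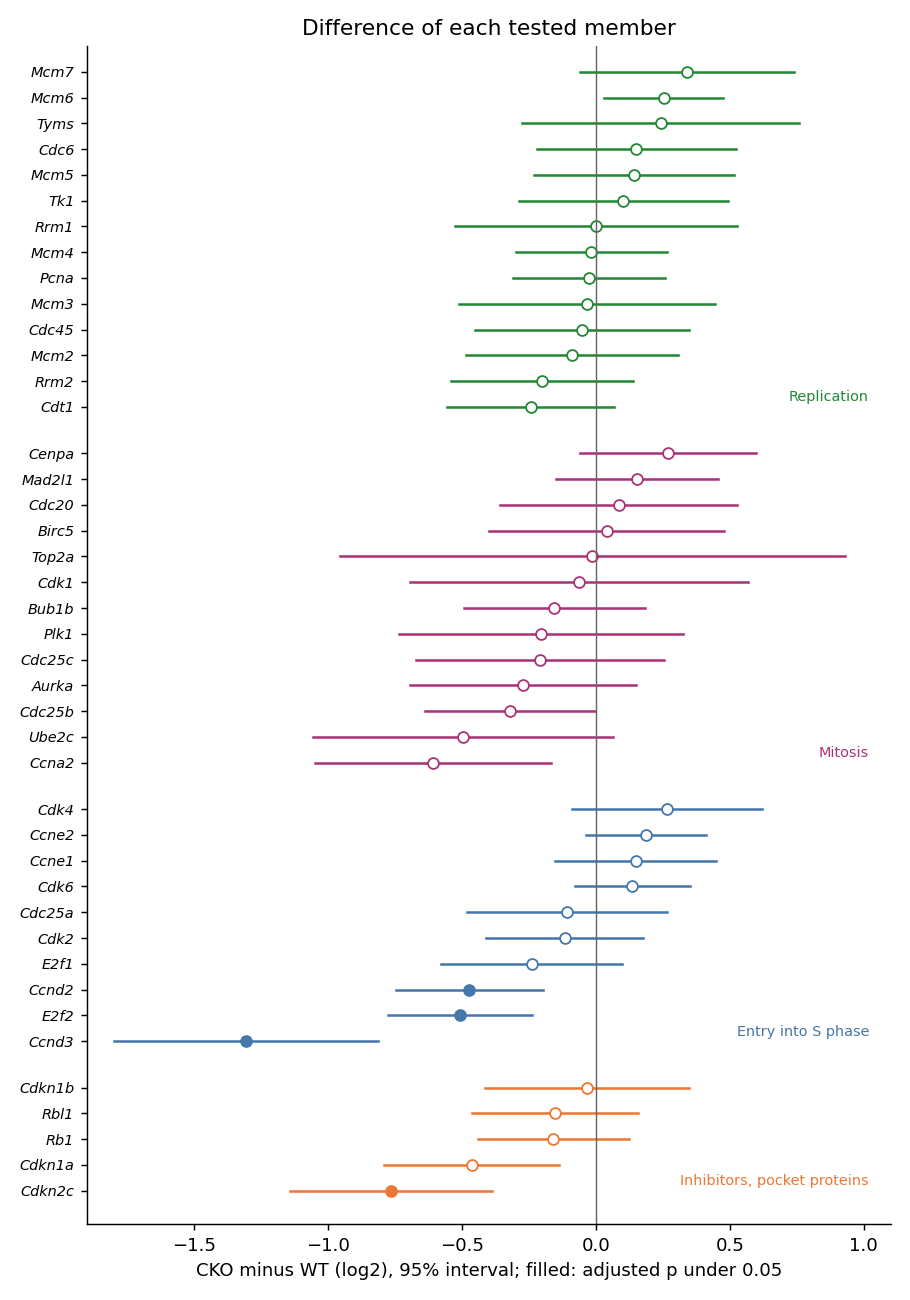
CKO minus WT difference in log2 units for each of the 42 tested members with its 95% interval, grouped by role; filled circles mark an adjusted p under 0.05. Ccnd3 lies farthest from 0 at -1.31, and the replication members are spread about 0 between -0.24 and 0.34.

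A D-type cyclin, Ccnd3, gave the largest difference in the set. Ccnd3, the cyclin D that pairs with Cdk6 in many lymphocytes, was at 9.31, 9.65, 9.30 and 9.08 for WT1 to WT4, against 8.06, 8.69, 7.56 and 7.81 for CKO1 to CKO4. All CKO values lay below all WT values, and CKO2, the highest of its group, was 0.39 below the lowest WT sample. Ccnd3 fell from 9.34 ± 0.24 to 8.03 ± 0.49 (SD, n = 4 each), a difference of -1.31 with SE 0.22 (adjusted p = 0.00749, limma). A second Ccnd3 probe was at 7.94, 7.23, 7.74 and 7.83 for WT1 to WT4, against 7.25, 6.66, 6.96 and 7.27 for CKO1 to CKO4, with groups that overlapped at WT2 and a difference of -0.65 with SE 0.18 (adjusted p = 0.0609, limma); blocking on replicate number brought it past the threshold (adjusted p = 0.0032). With the mean of the probes of each gene, Ccnd3 differed by -0.98 and passed. The call held in 19 of 20 alternatives, with adjusted p from 0.000658 to 0.0564, the last without WT1 and CKO1, where the difference was -1.32.

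Ccnd2, the other D-type cyclin on the list and one induced by growth signals, was at 10.56, 10.44, 10.17 and 10.03 for WT1 to WT4, against 9.77, 9.77, 9.84 and 9.93 for CKO1 to CKO4. CKO samples stayed between 9.77 and 9.93, just below WT4. Ccnd2 fell from 10.30 ± 0.24 to 9.83 ± 0.08 (SD, n = 4 each), a difference of -0.47 with SE 0.12 (adjusted p = 0.0488, limma). This call held with 1 sample left out only without WT4 and was lost without WT1, WT2, WT3 or any 1 CKO sample (adjusted p = 0.0739 to 0.132).

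E2f2, an E2F factor that activates replication genes in dividing cells and restrains division of resting T cells in mice, was at 11.04, 10.81, 10.96 and 11.09 for WT1 to WT4, against 10.64, 10.65, 10.32 and 10.25 for CKO1 to CKO4. Every CKO sample was below every WT sample. Signal fell from 10.97 ± 0.12 to 10.47 ± 0.21 (SD, n = 4 each), a difference of -0.51 with SE 0.12 (adjusted p = 0.0334, limma). A second, dim E2f2 probe overlapped between groups, with WT samples at 6.02 to 6.71 and CKO samples at 6.29 to 6.70, and the mean of both probes did not pass (-0.20, adjusted p = 0.386). The call did not hold when WT1, WT3, WT4, CKO3 or CKO4 was left out, with adjusted p of 0.0792 to 0.118. E2f1, a related activator, stood at 8.86 ± 0.18 in WT and 8.62 ± 0.29 in CKO, a difference of -0.24 with SE 0.15 (adjusted p = 0.43, limma).

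The kinases and E-type cyclins of G1 did not pass. Cdk2, the partner of cyclin E and cyclin A, was at 10.80, 11.05, 10.88 and 10.72 for WT1 to WT4, against 10.51, 11.06, 10.81 and 10.61 for CKO1 to CKO4. Its groups overlapped, and the difference was -0.12 with SE 0.13 (adjusted p = 0.699, limma). Ccne2, a cyclin E, was at 6.22, 5.90, 6.10 and 6.05 for WT1 to WT4, against 6.29, 6.11, 6.29 and 6.34 for CKO1 to CKO4. These values are near the floor, which compresses differences, and the difference was 0.19 with SE 0.10 (adjusted p = 0.341, limma). Cdk4 and Cdk6, the kinases that D-type cyclins activate, differed by 0.27 and 0.14, and neither passed (adjusted p = 0.407 and 0.497, limma). Ccne1, the other cyclin E, and Cdc25a, a phosphatase that activates Cdk2, differed by 0.15 and -0.11 (adjusted p = 0.616 and 0.787).

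**Figure D2:**
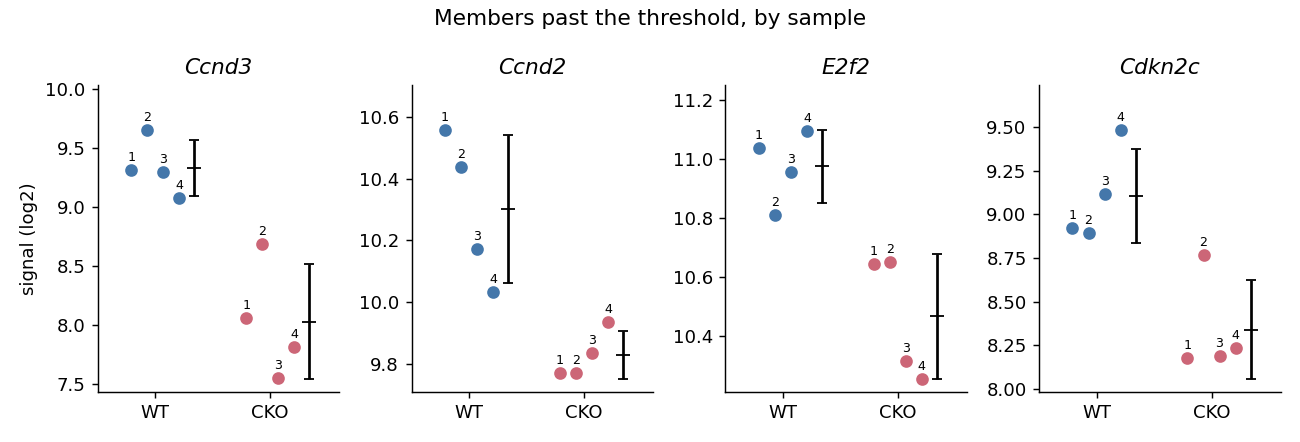
Log2 signal of the 4 members past the threshold in each sample, with the replicate number above each point; the bar beside each group is the mean with its SD (n = 4). In each panel all CKO points lie below all WT points, and the vertical axes differ and do not start at 0.

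Of the 5 inhibitors and pocket proteins, 1 fell and all 5 differences were below 0. Cdkn2c, or p18 INK4c, which blocks Cdk4 and Cdk6, was at 8.92, 8.90, 9.12 and 9.48 for WT1 to WT4, against 8.18, 8.77, 8.19 and 8.23 for CKO1 to CKO4. CKO1, CKO3 and CKO4 lay within 8.18 to 8.23, and CKO2 lay apart at 8.77, still below WT2. Cdkn2c fell from 9.11 ± 0.27 to 8.34 ± 0.29 (SD, n = 4 each), a difference of -0.77 with SE 0.17 (adjusted p = 0.024, limma). The call did not hold when WT3, WT4, CKO1, CKO3 or CKO4 was left out, with adjusted p of 0.0528 to 0.0861. A second Cdkn2c probe near the floor, at 6.17 to 6.55 over all samples, differed by -0.16 and did not pass.

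Cdkn1a, or p21, an inhibitor of cyclin-dependent kinases induced by p53, was at 8.29, 8.30, 8.44 and 8.16 for WT1 to WT4, against 8.01, 7.38, 7.94 and 8.01 for CKO1 to CKO4. The groups did not overlap, but the difference of -0.46 with SE 0.15 (adjusted p = 0.0963, limma) missed the threshold, and CKO2 was the lowest sample. Its second probe differed by -0.28 (adjusted p = 0.174), and the mean of both passed (-0.37, adjusted p = 0.0411). Rb1, the retinoblastoma protein, was at 8.46, 8.70, 8.59 and 8.95 for WT1 to WT4, against 8.39, 8.75, 8.50 and 8.42 for CKO1 to CKO4. Rbl1, the related pocket protein p107, was at 8.973, 8.918, 9.264 and 8.755 for WT1 to WT4, against 8.524, 9.002, 8.961 and 8.805 for CKO1 to CKO4. For Rb1 and Rbl1 the groups overlapped and the differences were -0.16 and -0.15 (adjusted p = 0.554 and 0.610). Cdkn1b, or p27, was near the floor at 5.70 to 6.54 and differed by -0.03.

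Erythroid markers were bright in all WT samples and in CKO1 and low in the other 3 CKO samples. Of 9 erythroid markers 6 had a probe and 5 passed the filter. The log2 of their summed signal was 12.27 to 13.81 in WT and 13.81 in CKO1, against 9.60 to 9.75 in CKO2, CKO3 and CKO4. Hba-a1, an alpha globin that T cells are not known to make, was at 12.08 to 13.68 in WT, at 13.68 in CKO1 and at 6.60 to 8.29 in the other CKO samples. Tfrc, the transferrin receptor, which dividing T cells also carry, rose by 0.70 (adjusted p = 0.0220, limma). The single CKO sample with a high erythroid signal, CKO1, had Ccnd3 at 8.06, Ccnd2 at 9.77, E2f2 at 10.64 and Cdkn2c at 8.18. The groups did not overlap for these 4 genes, so the place of CKO1 below every WT sample was fixed in advance. It therefore does not bear on erythroid transcripts. Of 8 CD8 T cell markers tested, 2 fell and none rose, where 3.04% of all genes tested were lower. Differences of the 8 ran from -0.54 to 0.06, with 7 below 0. Their summed signal was 16.36 to 16.48 in WT and 16.05 to 16.28 in CKO. These ranges did not overlap, as was so for 15.7% of all genes tested. Cd2 and Thy1 were the markers that fell. Dendritic cell markers, 4 of 6 tested and none past the threshold, summed to 11.44, 10.20, 11.56 and 11.46 for WT1 to WT4 and to 10.02 to 10.46 across CKO, and Itgax among them also occurs on effector T cells. Summed B cell markers (10.08 to 10.96 in WT, 10.13 to 11.26 in CKO) and NK cell markers (10.18 to 11.08, 9.78 to 10.55) overlapped between groups, and none of the 4 and 2 tested passed. The part of erythroid, CD8 T cell and dendritic cell transcripts in the 4 falls was not tested.

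Replication genes were evenly divided about 0, with 7 higher and 7 lower and a median of -0.01, where the median of all genes tested was -0.01. Their differences ran from -0.24 to 0.34, and all 14 of their 95% intervals lay within 1 log2 unit of 0. A change of the array signal of 2-fold or more thus lay outside each interval. Cdc45, at 5.91 to 6.76 over all samples, was near the floor, which compresses differences, so its interval bounds the signal and not the transcript. Mcm6 was at 12.33, 12.36, 12.32 and 12.35 for WT1 to WT4, against 12.38, 12.79, 12.60 and 12.60 for CKO1 to CKO4. The WT samples lay within 0.03 of each other and all CKO samples were above them, yet the difference of 0.25 with SE 0.10 (adjusted p = 0.182, limma) did not pass. Its second probe overlapped between groups, with WT samples at 9.19 to 10.24 and CKO samples at 9.57 to 10.30, and differed by 0.26. Mcm7 was at 10.55, 10.41, 11.04 and 11.09 for WT1 to WT4, against 10.93, 11.40, 11.24 and 10.88 for CKO1 to CKO4, a difference of 0.34 with SE 0.18 (adjusted p = 0.33, limma) between groups that overlapped. The other helicase subunits Mcm2, Mcm3, Mcm4 and Mcm5 differed by -0.09 to 0.14 (adjusted p = 0.712 to 0.959).

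Pcna, the sliding clamp of the replication fork, was at 12.17, 12.18, 12.54 and 12.36 for WT1 to WT4, against 12.16, 12.58, 12.25 and 12.15 for CKO1 to CKO4. The groups overlapped in full and the difference was -0.03 with SE 0.13 (adjusted p = 0.942, limma). Cdt1, which loads the helicase with Cdc6, was at 10.58, 10.24, 10.37 and 10.38 for WT1 to WT4, against 10.34, 10.43, 9.94 and 9.89 for CKO1 to CKO4. CKO3 and CKO4 were the lowest samples, and the difference was -0.24 with SE 0.14 (adjusted p = 0.383, limma). Rrm2, the small subunit of ribonucleotide reductase, which makes deoxynucleotides, was at 9.94, 9.54, 10.21 and 10.17 for WT1 to WT4, against 9.64, 9.97, 9.78 and 9.66 for CKO1 to CKO4. Its difference was -0.20 with SE 0.15 (adjusted p = 0.534, limma), while the large subunit Rrm1 differed by 0.00 with SE 0.24. Tyms and Tk1, both of which supply thymidine nucleotides, differed by 0.24 and 0.10, Cdc6 by 0.15 and Cdc45, a helicase cofactor, by -0.05 (adjusted p = 0.637 to 0.917).

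None of the mitosis genes passed: 9 of 13 differences were below 0, where 52.7% of all genes tested were, and the median was -0.15. Ccna2, cyclin A2, which acts in S phase and G2, was at 9.23, 9.31, 9.84 and 9.99 for WT1 to WT4, against 8.84, 9.27, 9.17 and 8.65 for CKO1 to CKO4. CKO2 at 9.27 lay between WT1 and WT2, so the groups overlapped, WT3 and WT4 were highest, and the difference of -0.61 with SE 0.20 (adjusted p = 0.106, limma) missed the threshold. Ube2c, the ubiquitin-conjugating enzyme of the anaphase-promoting complex, was at 10.20, 9.71, 11.12 and 10.61 for WT1 to WT4, against 9.76, 9.86, 10.17 and 9.86 for CKO1 to CKO4. WT2 was the lowest of all 8 samples, and the difference was -0.50 with SE 0.25 (adjusted p = 0.309, limma). Cdc25b, a phosphatase that activates Cdk1, was at 9.09, 9.23, 9.20 and 9.43 for WT1 to WT4, against 8.83, 9.33, 8.80 and 8.70 for CKO1 to CKO4. CKO2 was higher than WT1 to WT3, and the difference was -0.32 with SE 0.14 (adjusted p = 0.237, limma).

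Cenpa, the histone variant of centromeres, was at 11.79, 11.73, 12.17 and 12.25 for WT1 to WT4, against 12.50, 12.28, 12.20 and 12.03 for CKO1 to CKO4. WT3 and WT4 lay within the CKO range, and the difference was 0.27 with SE 0.15 (adjusted p = 0.352, limma). Birc5, or survivin, of the chromosomal passenger complex, was at 10.81, 10.56, 11.30 and 11.54 for WT1 to WT4, against 10.93, 11.28, 11.17 and 10.98 for CKO1 to CKO4. Its groups overlapped in full, and the difference was 0.04 with SE 0.20 (adjusted p = 0.942, limma). The mitotic kinases Aurka and Plk1 differed by -0.27 and -0.21, the spindle checkpoint genes Bub1b and Mad2l1 by -0.15 and 0.15, Cdc20 by 0.08, Cdc25c by -0.21 and Cdk1 by -0.06 (adjusted p = 0.484 to 0.934). Top2a, topoisomerase II alpha, which untangles chromosomes, ranged from 8.52 to 10.77 in WT and from 9.03 to 10.23 in CKO, so that its difference of -0.01 had an interval of -0.96 to 0.93. Bub1, Ccnb2, Cenpe and Kif11 were below the filter, at 5.61 to 6.26 over all samples, where a low transcript and an insensitive probe look alike.

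The spread between replicates differed between the roles, which is given with no test. The median SD within groups was 0.34 for 13 mitosis genes and 0.28 for 14 replication genes. It was 0.20 for 10 genes of S phase entry and 0.23 for 5 inhibitors and pocket proteins. This SD was not computed over all genes tested. In WT, WT3 or WT4 was the highest sample for 13 of 13 mitosis genes and 12 of 14 replication genes, and WT2 was the lowest for 10 and 9. In CKO, CKO2 was the highest for 10 of 14 replication genes and 6 of 13 mitosis genes. Relative to the WT mean, the median of the mitosis genes was -0.21, -0.37, 0.19 and 0.32 in WT1 to WT4 and -0.33, 0.03, 0.12 and -0.27 in CKO1 to CKO4. That of the replication genes was -0.04, -0.25, 0.16 and 0.24 in WT1 to WT4 and -0.05, 0.26, 0.04 and -0.10 in CKO1 to CKO4. WT samples alone thus spanned the CKO range for the mitosis genes, while CKO2 was marginally above WT4 for the replication genes. Myeloid markers, 11 of 15 with a probe and 9 tested, had a log2 summed signal of 11.67 and 11.16 in WT3 and WT4 against 10.60 and 10.37 in WT1 and WT2, and of 10.43, 10.70, 10.58 and 12.08 in CKO1 to CKO4. Their part in the spread was not tested.

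**Figure D3:**
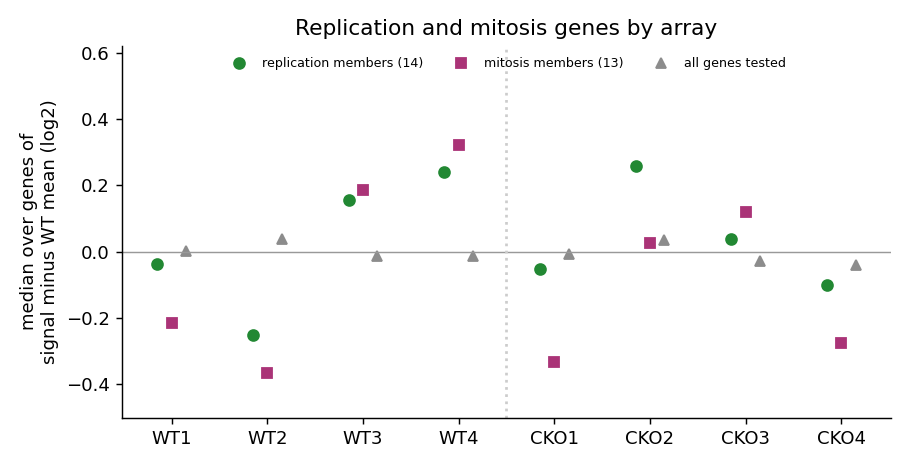
Median over genes of the log2 signal minus the WT mean, for 14 replication members (circles), 13 mitosis members (squares) and all genes tested (triangles), on each array. Mitosis members run from -0.37 in WT2 to 0.32 in WT4, and all genes tested stay within 0.04 of 0.

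Mitosis genes stood below replication genes in the comparison of genotypes by 0.15 before rounding (medians of -0.15 and -0.01). The same quantity within an array, mitosis minus replication, was -0.18, -0.11, 0.03 and 0.08 in WT1 to WT4 and -0.28, -0.23, 0.08 and -0.17 in CKO1 to CKO4. These ranges overlapped, and the pooled SD between arrays of 1 group was 0.14. With 1 sample left out, the gap ran from -0.25 without WT2 to -0.05 without CKO1, and the median of the mitosis genes from -0.33 without WT2 to -0.02 without CKO1. Without WT3 the 2 values were -0.09 and -0.04, and without WT4 the mitosis median was -0.05.

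The median difference of the replication genes and of the mitosis genes did not keep 1 sign over the same-numbered pairs. Sample 2 of CKO was above sample 2 of WT for 14 of 14 replication genes and 12 of 13 mitosis genes, with medians of 0.56 and 0.44. Sample 4 of CKO was below sample 4 of WT for 12 of 14 and 13 of 13, with medians of -0.30 and -0.63. For number 3 the counts below were 9 of 14 and 10 of 13 (medians -0.12 and -0.13), and for number 1 they were 7 of 14 and 8 of 13 (medians 0.00 and -0.11). Among all genes tested, 49.5% to 52.9% were below WT in each of the 4 pairs. Among tested members, Ccnd3, Ccnd2, E2f2, Cdkn2c, Cdkn1a and Ccna2 were below WT in 4 of 4 pairs, and Mcm6, Ccne2, Cdk4 and Cdk6 were above WT in 4 of 4. The share of all genes tested that kept 1 sign over the 4 pairs was not computed, so this list is a description only.

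**Figure D4:**
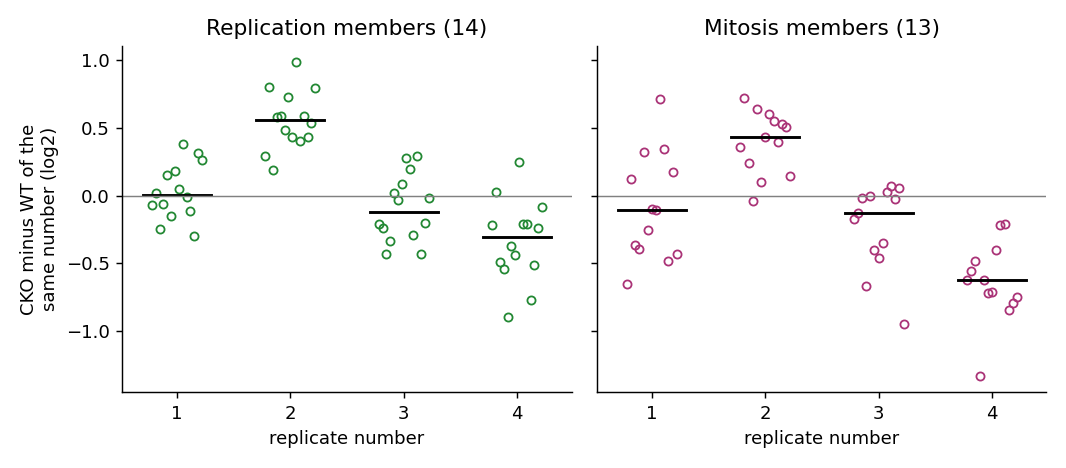
CKO minus WT of the same replicate number, in log2 units, for each replication member (left, 14 genes) and each mitosis member (right, 13 genes); bars are medians. Pair 2 lies above 0 with medians of 0.56 and 0.44, and pair 4 mostly below with medians of -0.30 and -0.63.

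Probes of the same gene disagreed in WT2 and CKO2. The brightest Cdc20 probe was at 8.84, 9.16, 9.37 and 9.59 for WT1 to WT4, against 9.16, 9.80, 9.37 and 8.96 for CKO1 to CKO4, and the next at 7.11, 5.97, 7.01 and 7.26 for WT1 to WT4, against 7.15, 6.12, 7.13 and 6.96 for CKO1 to CKO4. CKO2 was thus the highest sample on the first and the lowest CKO sample on the next, where WT2 was lowest of all. The second Mcm7 probe, where WT2 and CKO2 were again the lowest of their groups, was at 7.70, 6.40, 7.92 and 8.18 for WT1 to WT4, against 7.66, 6.56, 7.89 and 7.84 for CKO1 to CKO4. Over 17 members with at least 2 tested probes, the gap between the brightest and the next, each measured against the other 3 samples of the group, had a median of 0.49 in WT2 and 0.56 in CKO2. In the other 6 samples that median was 0.13 to 0.32. Of these 17 genes, 3 had tested probes of opposite sign for the genotype difference, and none had more than 1 probe past the threshold in the fit without the block.

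**Figure D5:**
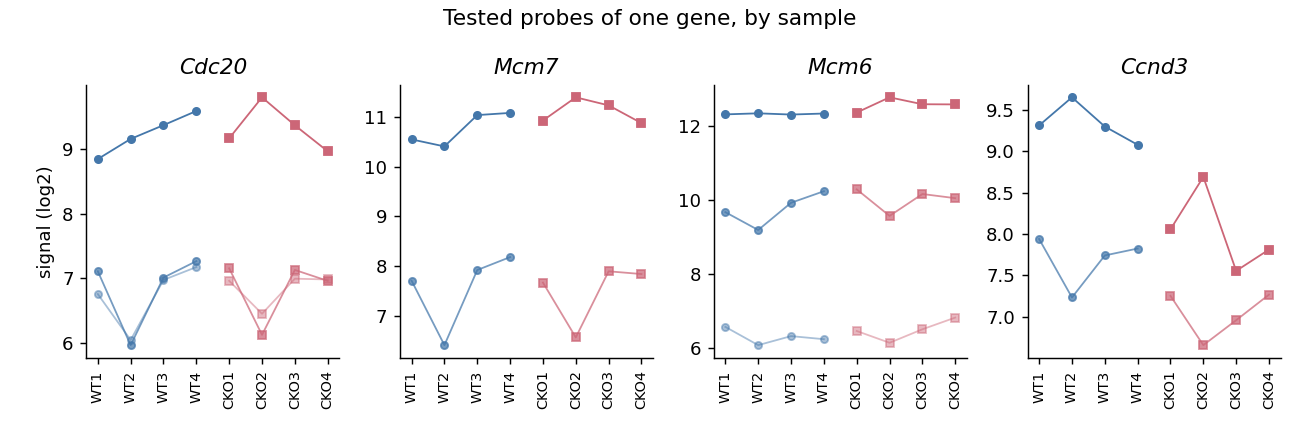
Log2 signal of every tested probe of Cdc20, Mcm7, Mcm6 and Ccnd3 in each sample; lines join values of the same probe within a group, WT in blue and CKO in red, fainter for dimmer probes, and the vertical axes differ. WT2 and CKO2 dip on the dimmer probes of Cdc20 and Mcm7 while CKO2 peaks on the brightest.

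Other genes of the same pathways were taken from lists made by function. Of 53 further replication genes 41 were tested, 1 rose and none fell, with a median difference of 0.07. This single call is no larger a share than the 4.73% of all genes tested that were higher. The gene that rose was Dut, the dUTPase that keeps uracil out of DNA, at 7.64, 7.55, 7.65 and 7.26 for WT1 to WT4, against 7.82, 8.36, 8.34 and 7.94 for CKO1 to CKO4. All CKO samples were above all WT samples, a difference of 0.59 or 1.51-fold with SE 0.15 (adjusted p = 0.0428, limma). Its call held with 1 sample left out only without CKO1, and did not hold when any other sample was left out, with adjusted p of 0.0589 to 0.142.

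Of 81 further mitosis genes 56 were tested by limma and none passed. At an unadjusted p under 0.05 stood 3 higher and 3 lower, a smaller share than the 23.3% of all genes tested. When replicate number was blocked, 3 of the 56 passed, Cenpk and Cenpp higher and Prc1 lower, and 3 of the 41 replication genes, Dut, Dtymk and Shmt1, were higher. With that block 6.87% of all genes tested were higher and 5.69% lower, and the 12.6% that passed either way is a larger share than 3 of 56. All 3 of the 41 were higher, a share near that 6.87%. Over the 56, the median difference was -0.08 and 42 were below 0. Nearest the threshold were Prc1, which bundles microtubules between separating chromosomes, and Zwint, a kinetochore protein. Prc1 was at 11.25, 11.14, 11.40 and 11.73 for WT1 to WT4, against 10.61, 10.91, 11.07 and 10.87 for CKO1 to CKO4, with no overlap and a difference of -0.51 with SE 0.14 (adjusted p = 0.0640, limma). Zwint was at 9.74, 9.76, 9.74 and 9.69 for WT1 to WT4, against 10.05, 9.87, 10.09 and 10.14 for CKO1 to CKO4, with no overlap and a difference of 0.31 with SE 0.09 (adjusted p = 0.0712, limma).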

How the data were processed

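The deposited table holds 1 log2 signal per probe and array for 24048 probes and 8 arrays of biotinylated cRNA, 1 array per sample. The values were normalized between arrays by the authors, as the values themselves show: every array had a median of 6.15 and a highest value of 15.15. How the arrays were scanned, background-corrected and normalized, and whether probes were filtered, is not given in sources used here. Detection p-values were not used here, and 0.952% to 1.31% of values per array were missing. Precision is limited by the number of arrays. Gene names came from GEO platform annotation of the probes, and the 18S control probe, listed there under an unrelated gene, had its name dropped.

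Probes with a mean over the 8 arrays above the median of all probes, 6.12, were tested (11991 probes, 8095 named genes by their brightest probe). CKO and WT were compared on the deposited log2 values with limma 3.58.1 (lmFit and eBayes, two-sided, R 4.3.3), and p-values were adjusted by Benjamini-Hochberg over all probes tested. The test was checked on simulated data with independent noise in each probe and sample. Such data lack the deviations that same-numbered samples shared here, so the check does not cover them. The members and lists were chosen with earlier results of these data known. Every member is described. Values in every sample are given for members past the threshold and, per role, for the 4 with the smallest p and the 2 brightest. From the further pathway lists, genes past the threshold are named, or else the 2 with the smallest p.

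Same-numbered samples deviated together from their group means, with correlations of 0.318, 0.468, 0.178 and 0.224 across probes. All were above 0.1, so the numbers were taken to pair the samples. The main fit did not use this pairing, and SE, intervals and p-values come from that fit unless the block is named. Blocked values are given where they moved a call or a count. WT3 and WT4, however, correlated more highly with CKO4 and CKO3, at 0.254 and 0.263, than with their own number, so the pairing of numbers 3 and 4 is less certain. The Y-linked gene Eif2s3y was bright only in WT1 and CKO1, at 10.5 and 10.9 against 5.73 to 6.52 elsewhere, so these samples held cells from males. Alternatives were the replicate block, other scalings, filters, offsets, variance models and probe choices, and samples left out.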

Additional observations from a re-analysis of the deposited data

Results flagged for a closer look

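Within groups of 4 samples, 4 of 92 sets of values had 1 sample far from the others by Dixon's test at 95%, where chance marks about 1 in 20. Cdc25a was at 6.87 in WT2 and at 7.50 to 7.54 in the other WT samples. Cdkn1a was at 7.38 in CKO2 and at 7.94 to 8.01 in the other CKO samples. Cdkn2c was at 8.77 in CKO2 and at 8.18 to 8.23 in the other CKO samples. Rrm1 was at 10.32 in CKO3 and at 9.94 to 9.97 in the other CKO samples. Of these 4 samples, 3 were numbered 2.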

How the results depend on the processing

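Over 20 alternatives, Ccnd3 passed in 19, Cdkn2c in 14, E2f2 in 12, Dut in 10 and Ccnd2 in 9, and none of these 5 changed direction. Their differences ran from -1.53 to -0.98 for Ccnd3, -0.98 to -0.46 for Cdkn2c, -0.62 to -0.20 for E2f2, -0.56 to -0.37 for Ccnd2 and 0.48 to 0.73 for Dut. Among members that did not pass, 49 of 754 values changed sign without a call, in 15 genes with differences of at most 0.24. No member was called higher in CKO under any of the 20. The medians of replication and mitosis genes and the gap between them moved by less than the spread between arrays under each. That spread, an SD of 0.19, 0.28 and 0.14, was about as large as these values or larger, so this limit says little about stability. With 1 sample left out the mitosis median ran from -0.33 to -0.02. The replication median, close to 0, changed sign under 7 of the 20.

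Genes called, 629 in all, numbered 1017 with the replicate block and 1172 with array weights. They numbered 818 with WT2 and CKO2 left out and 278 with WT1 and CKO1 left out. With 1 sample left out they numbered 291 to 759, with 365 without WT1, 416 without WT3, 291 without CKO3 and 391 without CKO4. Members called lower, 4 in all, numbered 2 with 32 subtracted from the linear value, 7 with array weights, 7 with WT2 and CKO2 left out, 0 with WT1 and CKO1 left out, and 1 to 4 with 1 sample left out. The block kept all 4. Further replication genes called, 1 in all, numbered 3 with the block or array weights, 2 with trend and robust settings, with the mean of probes or with both samples numbered 2 left out, 0 with 32 subtracted or with both samples numbered 1 left out, and 0 to 2 with 1 sample left out. Further mitosis genes called, 0 in all, numbered 3 with the block, 1 with 50 added to the linear value, with trend and robust settings or with the mean of probes, 4 with array weights, 5 with both samples numbered 2 left out, and 0 to 1 with 1 sample left out. Leaving samples out lowers the sample number by construction, and otherwise the cause was not tested. Signals near the floor compress differences, which limits Ccne2, Cdk6, Cdkn1b and Cdc45.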
